A study of Homo sapiens with 8 samples.

Results

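CWR-R1ENZR, an enzalutamide-resistant form of the prostate cancer cell line CWR-R1, was compared with enzalutamide-sensitive CWR-R1. Enzalutamide binds the androgen receptor and keeps androgens from activating it. The comparison took both columns of 1 table, CWR-R1ENZR and CWR-R1, which hold 2 of the 8 libraries of a series that also covers C4-2B and VCaP prostate cancer cells in both forms, and all 14809 genes listed in that table were used. Polyadenylated RNA of unmodified cells was sequenced as paired ends. The labels give no transgene for these lines, and the sources used here give neither how resistance arose, nor whether CWR-R1ENZR is 1 clone, nor whether drug was present at harvest. CWR-R1 came from a xenograft of a prostate tumour that relapsed after androgen withdrawal.

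There was 1 library of each line, so no test was possible, and no value below has a replicate check. Reads in the listed genes numbered 14503586 in CWR-R1ENZR and 15249294 in CWR-R1. A level is the deposited value, a read count divided by a scaled library size, on which 1 read is worth 0.0670 in CWR-R1ENZR and 0.0675 in CWR-R1. Levels are not divided by transcript length, so they are compared between libraries and not between genes. A ratio is log2 of value + 1 in CWR-R1ENZR over value + 1 in CWR-R1, which understates the change of low genes. Folds in the text are plain ratios of both values, and 95% intervals of single folds are exact binomial (Clopper-Pearson) and cover counting error only. A gene counts as compared where its higher value was 5 or more. A gene under 5 in one line therefore entered only through the line in which it was high, which fixes its direction. That limit holds for every count and list median below, also where it is not repeated. In bulk RNA, fewer cells of a type and less RNA per cell cannot be told apart.

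Over the 12868 genes listed in all 3 tables of the series, CWR-R1ENZR and CWR-R1 correlated at 0.890 on log2 values, a description across genes, which are not independent. CWR-R1ENZR correlated more closely, at 0.940, with the library labelled VCaPENZR, which stands apart from VCaP (0.728). No result below uses that library. Of 29 markers of fibroblasts, endothelium and blood, 9 are listed. Their summed levels were 69.8 in CWR-R1ENZR and 37.4 in CWR-R1 for fibroblasts (3 of 10 listed), 31.2 in CWR-R1ENZR and 13.8 in CWR-R1 for endothelium (3 of 9 listed), and 6.70 in CWR-R1ENZR and 4.99 in CWR-R1 for blood (3 of 10 listed). COL1A1 was at 63.6 in CWR-R1ENZR and 22.2 in CWR-R1 and VWF at 26.5 in CWR-R1ENZR and 5.73 in CWR-R1, whereas LUM, at 2.81 in CWR-R1ENZR and 11.6 in CWR-R1, and ESAM, at 3.69 in CWR-R1ENZR and 8.03 in CWR-R1, were lower in CWR-R1ENZR. The other 20 markers, PTPRC and CD3E of blood cells among them, are not among the listed genes, so they have no level here. CD14 was at 1.07 in CWR-R1ENZR and 0.135 in CWR-R1. The part of such cells in any result was not tested. Luminal factors of prostate epithelium were detected in both lines, among them HOXB13 at 83.4 in CWR-R1ENZR and 53.6 in CWR-R1 and FOXA1 at 297 in CWR-R1ENZR and 371 in CWR-R1.

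Prostate luminal cells use androgen signalling to make secretory products such as kallikreins, and growth factor receptors, which signal through the RAS and ERK kinases, can support their growth beside it. ERK activity switches on immediate early transcription factors and then its own inhibitors, the dual-specificity phosphatases (DUSPs) and Sprouty proteins. Proliferation depends on genes of DNA replication and mitosis, many of which carry sites for E2F factors in their promoters.

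Of 12462 compared genes, 1220 (9.79%) were at least 2-fold higher in CWR-R1ENZR and 1287 (10.3%) were at least 2-fold lower, 20.1% in either direction, and these shares are the background for every list below. The median ratio was −0.02 and the median absolute ratio 0.45. At 4-fold or more, 370 genes were higher and 337 lower, and at 10-fold or more 93 were higher and 86 lower. The highest and lowest genes ran from TGM3, at 497 in CWR-R1ENZR and 0.472 in CWR-R1, to PDGFRA, at 0.6702 in CWR-R1ENZR and 517 in CWR-R1. The spread between replicates was not measured in CWR-R1. In the series' only replicated line, 2 libraries of C4-2BENZR differed by 2-fold or more at 12 of 11176 genes (0.107%), with a median absolute ratio of 0.08, and 2 libraries of C4-2B at 21 of 11028 (0.190%), with one of 0.09. A single library of C4-2BENZR set against one of C4-2B gave 8.62% to 8.81%. In the authors' deposited table, 1464 genes had a false discovery rate below 0.05, 804 higher and 660 lower in CWR-R1ENZR, from a test that the sources used here do not name. The 2-fold list holds 964 of them, which is 65.8% of the authors' list and 38.5% of the 2-fold list, and every gene of the authors' list that was compared here is among these 964.

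**Figure D1:**
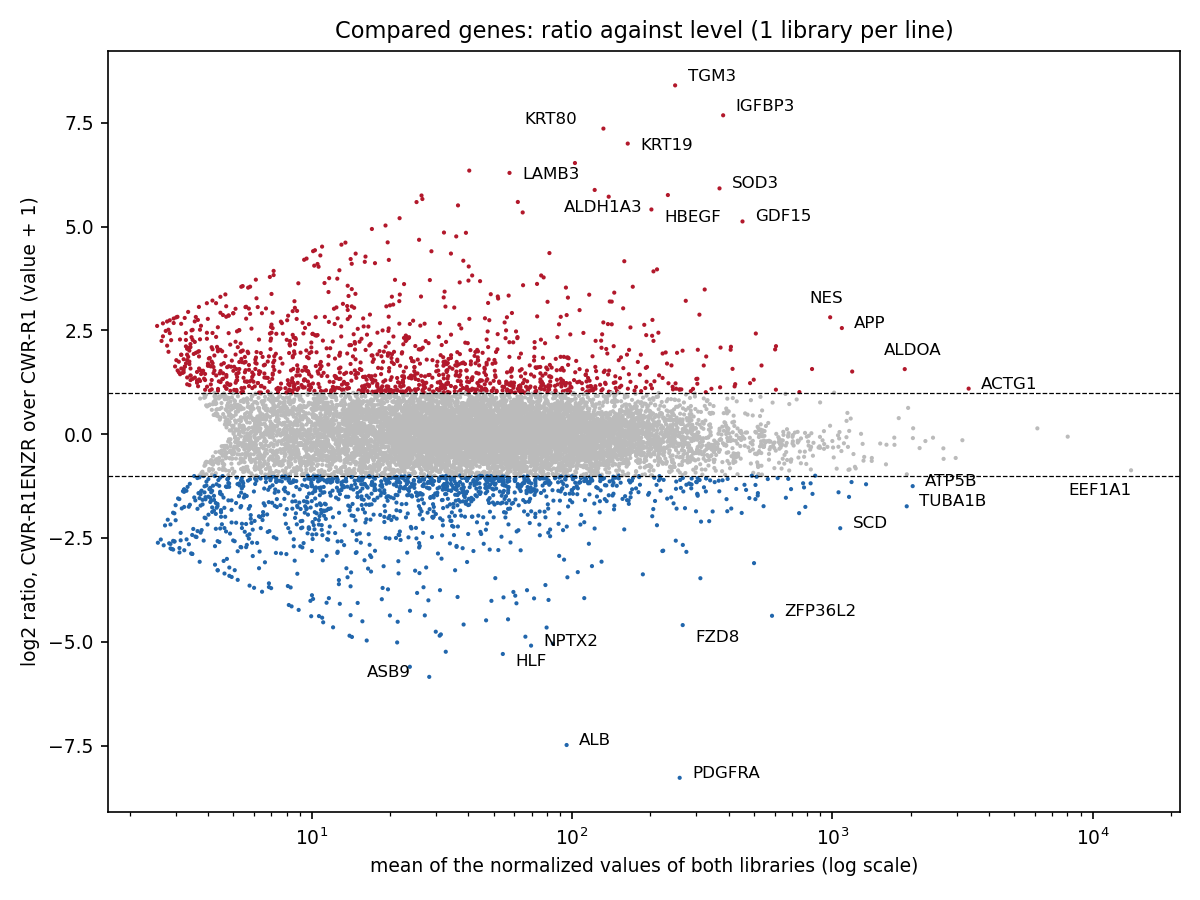
Log2 ratio of CWR-R1ENZR over CWR-R1 (value + 1, y axis) against the mean normalized value of both libraries (x axis, log scale) for the 12462 compared genes, 1 point per gene. Red points are at least 2-fold higher (1220 genes) and blue points at least 2-fold lower (1287) in CWR-R1ENZR, the dashed lines mark 2-fold, and the named genes lie farthest from 0 at low and high levels.

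Androgen-activated genes were mostly lower, but not as a block. Of 38 compared genes of the androgen-activated list, 16 were at least 2-fold lower and 5 at least 2-fold higher in CWR-R1ENZR. Their median ratio was −0.66 against −0.02 for all compared genes. All 4 compared secretory products were lower by 2-fold or more, but KLK15, ACPP and AZGP1 were under 5 in CWR-R1ENZR. Those genes entered only through CWR-R1, which fixed their direction, so only KLK4 could have gone either way. KLK4, a kallikrein protease, was at 5.16 in CWR-R1ENZR and 154 in CWR-R1 (29.9-fold lower, 23.9 to 38.1), KLK15 was 7.33-fold lower at 0.938 in CWR-R1ENZR and 6.88 in CWR-R1, the prostatic acid phosphatase gene ACPP was 4.78-fold lower, and AZGP1, a zinc-binding secreted glycoprotein, was at 1.21 in CWR-R1ENZR and 7.76 in CWR-R1. KLK2 lay under the filter of compared genes, with 2 reads in CWR-R1ENZR and 70 in CWR-R1.

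Among the membrane and intracellular products, the pattern was split. STEAP2, a metalloreductase, was at 2.48 in CWR-R1ENZR and 48.3 in CWR-R1 (19.5-fold lower), and PMEPA1, an inhibitor of TGF-beta signalling, was 13.5-fold lower. FOLH1, which encodes prostate-specific membrane antigen, was at 38.3 in CWR-R1ENZR and 177 in CWR-R1. It was counted in this list, but androgen can repress it in prostate cells, so its place here is uncertain. The opposite end held ALDH1A3, an enzyme that makes retinoic acid, at 459 in CWR-R1ENZR and 7.49 in CWR-R1 (61.3-fold higher, 50.8 to 74.7). ABCC4, a transporter that exports cyclic nucleotides and drugs, was 4.801-fold higher at 340.1 in CWR-R1ENZR and 70.8 in CWR-R1, and the transcription factor MAF was 5.28-fold higher. Other members differed by less than 2-fold, among them SLC45A3 at 30.9 in CWR-R1ENZR and 15.7 in CWR-R1 and NDRG1 at 51.5 in CWR-R1ENZR and 69.2 in CWR-R1. Genes that androgen withdrawal raises in prostate cells were not uniformly higher. Of 7 compared, 1 was at least 2-fold higher, PRKACB, a catalytic subunit of protein kinase A, at 83.4 in CWR-R1ENZR and 29.1 in CWR-R1, and 3 were lower. Those were DDC, the aromatic amino acid decarboxylase, with no read in CWR-R1ENZR and 47.6 in CWR-R1 (at least 237-fold lower against a floor of 3 reads), UGT2B15, which inactivates androgens by glucuronidation, with 3 reads in CWR-R1ENZR and 200 in CWR-R1, and the receptor tyrosine kinase gene MET at 2.81 in CWR-R1ENZR and 14.4 in CWR-R1.

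In C4-2B, the androgen-activated list had medians of −0.06 to 0.04 over the 4 pairings of a resistant with a sensitive library, and the difference between the cell lines was not tested. Steroid enzymes, which make or inactivate androgens, were higher in 3 of 15 compared cases and lower in 2. AKR1C2, which inactivates dihydrotestosterone, was at 10.7 in CWR-R1ENZR and 2.02 in CWR-R1, and counting could have split its reads with the close copy AKR1C1, at 10.5 in CWR-R1ENZR and 6.005 in CWR-R1. AKR1C3, which makes testosterone, was at 28.1 in CWR-R1ENZR and 24.4 in CWR-R1, STS, which frees steroids from sulfate, at 32.2 in CWR-R1ENZR and 7.62 in CWR-R1, and CYB5A, a cofactor of androgen synthesis, at 28.8 in CWR-R1ENZR and 82.7 in CWR-R1. Glucocorticoid targets share genes with the androgen lists. Of 21 compared, 2 were higher and 7 lower, with MAOA, which oxidizes monoamines, at 4.02 in CWR-R1ENZR and 109 in CWR-R1 and ANGPTL4, a lipase inhibitor, at 12.7 in CWR-R1ENZR and 210.1 in CWR-R1. SGK1, a kinase that glucocorticoids induce, lay on the other side at 20.98 in CWR-R1ENZR and 9.92 in CWR-R1.

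Growth factor receptors differed in both directions. Of 15 compared receptor genes outside the ERBB and IGF families, 5 were higher and 5 lower. PDGFRA, the alpha receptor for platelet-derived growth factors, had 10 reads in CWR-R1ENZR and 7669 in CWR-R1. FGFR1 was at 15.7 in CWR-R1ENZR and 91.4 in CWR-R1, FGFR3 at 15.6 in CWR-R1ENZR and 100.4 in CWR-R1 and FGFR4 at 6.300 in CWR-R1ENZR and 17.7 in CWR-R1, so 3 of the 4 FGF receptor genes were lower. The remaining FGFR2 was 21.98-fold higher, at 11.9 in CWR-R1ENZR and 0.5397 in CWR-R1. MST1R, the receptor for macrophage-stimulating protein, was 7.19-fold higher at 84.4 in CWR-R1ENZR and 11.7 in CWR-R1, whereas its relative MET was lower. DDR1, a receptor for collagen, was at 988 in CWR-R1ENZR and 226 in CWR-R1 (4.36-fold higher, 4.202 to 4.53), and NRP1, a coreceptor for VEGF and semaphorins, was 4.695-fold higher.

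In the ERBB family a ligand and a receptor stood out. HBEGF, a ligand of EGFR and ERBB4, was at 395 in CWR-R1ENZR and 8.298 in CWR-R1 (47.6-fold higher, 39.8 to 57.4), and ERBB2, which has no ligand of its own and pairs with the other receptors, was at 662 in CWR-R1ENZR and 153 in CWR-R1 (4.32-fold higher, 4.13 to 4.53). The other 3 receptors were somewhat lower, EGFR at 24.1 in CWR-R1ENZR and 46.6 in CWR-R1, ERBB3 at 174 in CWR-R1ENZR and 286 in CWR-R1 and ERBB4 at 9.65 in CWR-R1ENZR and 12.01 in CWR-R1. LRIG1, which promotes degradation of ERBB receptors, was 2.12-fold lower. In the IGF system the receptor IGF1R was level, at 32.97 in CWR-R1ENZR and 32.99 in CWR-R1, and its adaptors GRB10 and GRB14 were lower, GRB10 at 14.3 in CWR-R1ENZR and 34.1 in CWR-R1 and GRB14 at 2.88 in CWR-R1ENZR and 11.2 in CWR-R1. Of the extracellular partners, 4 of 6 compared were at least 2-fold higher and none at least 2-fold lower. IGFBP3 stood at 758 in CWR-R1ENZR and 2.699 in CWR-R1, IGFBP5 at 31.4 in CWR-R1ENZR and 7.76 in CWR-R1 and IGFBP1 at 11.3 in CWR-R1ENZR with 1 read in CWR-R1 (interval of the fold 29.7 to 6669). IGFBP3 and IGFBP1 were under 5 in CWR-R1 and entered only through CWR-R1ENZR, which fixed their direction. STC1, a stanniocalcin that inhibits the protease of IGF-binding proteins, was 4.41-fold higher.

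Genes that report ERK activity were higher in part. Of 15 compared feedback inhibitors, 8 were at least 2-fold higher and none at least 2-fold lower (median 1.07). DUSP5, a nuclear phosphatase of ERK, was at 70.2 in CWR-R1ENZR and 1.62 in CWR-R1 (43.3-fold higher, 28.96 to 67.9). DUSP6, its cytoplasmic counterpart, was at 95.03 in CWR-R1ENZR and 8.97 in CWR-R1 (10.6-fold higher), DUSP4 at 327 in CWR-R1ENZR and 51.8 in CWR-R1 and DUSP2 at 154 in CWR-R1ENZR and 23.8 in CWR-R1. SPRY4, a Sprouty inhibitor of receptor signalling, was 5.16-fold higher, while its relative SPRY1 was at 19.8 in CWR-R1ENZR and 27.6 in CWR-R1. Of 21 immediate early factors, 9 were higher and 1 was lower (median 0.92). The higher ones included the AP-1 subunits JUNB at 276 in CWR-R1ENZR and 81.9 in CWR-R1, JUND at 487 in CWR-R1ENZR and 154 in CWR-R1 and FOSL2 at 56.03 in CWR-R1ENZR and 16.1 in CWR-R1, and IER3, a short-lived stress protein, at 105 in CWR-R1ENZR and 9.45 in CWR-R1 (11.1-fold higher). FOS, the subunit most often used to mark acute induction, was at 13.00 in CWR-R1ENZR and 11.9 in CWR-R1, and JUN at 39.1 in CWR-R1ENZR and 68.9 in CWR-R1. MYC was the member that was lower, at 197 in CWR-R1ENZR and 411 in CWR-R1. The third role, effectors, was nearer to level, with 1 of 10 at least 2-fold higher, 0 at least 2-fold lower, and 5 above and 5 below 0 (median 0.09). CCND1, cyclin D1, was high in both, at 2038 in CWR-R1ENZR and 1559 in CWR-R1. Among ETS factors that ERK signalling induces, ETV4 was 3.81-fold higher, ETV5 was at 36.4 in CWR-R1ENZR and 24.4 in CWR-R1 and ETV1 at 38.6 in CWR-R1ENZR and 61.4 in CWR-R1, so the 3 relatives had no common direction. In C4-2B the same ERK list, all roles, had medians of −0.13 to 0.04 over the 4 pairings, with 1 member at least 2-fold higher and 3 at least 2-fold lower in all of them, against 18 higher and 1 lower of 46 compared here. The difference was not tested.

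**Figure D2:**
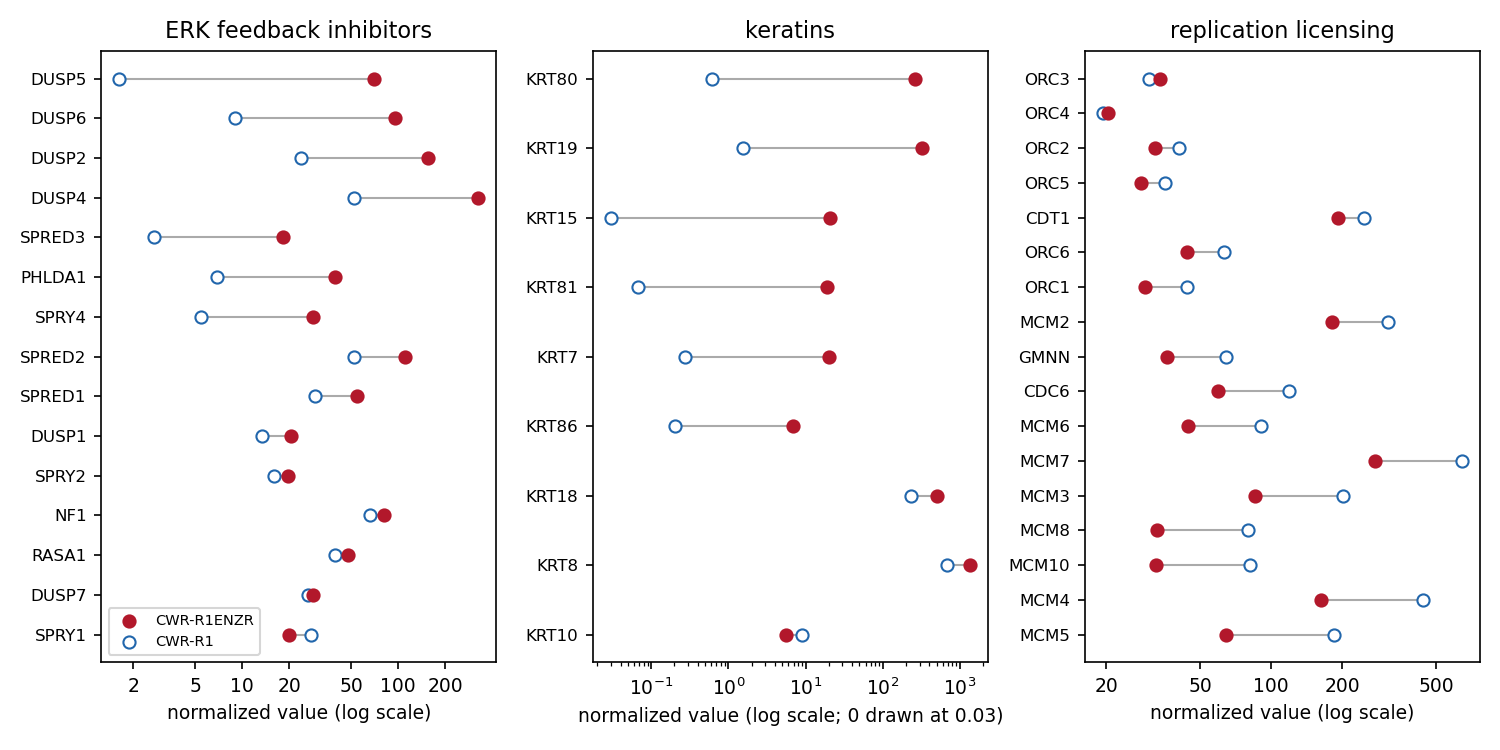
Normalized values (x axes, log scale) of every compared member of 3 lists, filled red points for CWR-R1ENZR and open blue points for CWR-R1, joined by a line for each gene. Of 15 ERK feedback inhibitors all but SPRY1 lie higher in CWR-R1ENZR, of 9 keratins all but KRT10 do, and of 17 replication licensing genes all but ORC3 and ORC4 lie lower.

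AP-1, the dimer of JUN and FOS family proteins, binds TGACTCA. That motif was found, on either strand of the 300 bases around the start, in 57 of 943 promoters (6.04%) of genes at least 2-fold higher in CWR-R1ENZR, in 24 of 979 (2.45%) of those at least 2-fold lower, in 2.69% of all compared genes with a promoter and in 4.92% of all promoters of the table. These shares are a description, and base composition and promoter class were not taken into account. Among the 100 highest genes by ratio 5 promoters held it. One of them belongs to TNFSF15, a TNF-family cytokine, which was at 76.5 in CWR-R1ENZR and 3.71 in CWR-R1 (20.6-fold higher), and its promoter is shown as an example, chosen after its value was seen, of a motif within 200 bases of the start. The sequence is from RefSeq (GRCh38.p14, minus strand, chr9:114792531-114792730), given 5′ to 3′ as the 200 bases before the start, with the motif in capitals.
TNFSF15: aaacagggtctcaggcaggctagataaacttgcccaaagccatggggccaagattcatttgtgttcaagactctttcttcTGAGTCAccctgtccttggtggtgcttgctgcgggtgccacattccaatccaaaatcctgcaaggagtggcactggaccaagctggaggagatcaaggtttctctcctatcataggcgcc

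Targets of YAP and TEAD, the transcription factors held back by the Hippo kinases, were also higher. Of 15 compared targets, 9 were higher by 2-fold or more and 1 was lower (median 1.36), whereas the factors and kinases themselves were nearly level, with 1 of 14 past 2-fold. CTGF, a matricellular protein and the textbook target, was at 175 in CWR-R1ENZR and 14.2 in CWR-R1 (12.3-fold higher, 10.7 to 14.2), and its relative CYR61 at 95.5 in CWR-R1ENZR and 16.1 in CWR-R1 (5.95-fold higher). AMOTL2, which holds YAP in the cytoplasm, was 5.59-fold higher, and MYOF, a membrane repair protein, 8.24-fold higher. The kinase gene NUAK2 was the lower member, at 7.305 in CWR-R1ENZR and 22.7 in CWR-R1, and YAP1 itself was at 135 in CWR-R1ENZR and 139 in CWR-R1. LATS2, in the list as a kinase and as a target, was 2.64-fold higher. IGFBP3 is also a member, so this count is not independent of the IGF list. The TEAD motif GGAATG stood in 4 of 10 target promoters, against 14.0% of all promoters and 10.5% of those of compared genes. The promoter of NUAK2, the lower member, holds 2 copies within 200 bases of the start. The CTGF promoter (RefSeq, GRCh38.p14, minus strand, chr6:131951373-131951572) holds 3 copies within 200 bases, the first starting 169 bases before the start and the last 95. It is printed with the copies in capitals.
CTGF: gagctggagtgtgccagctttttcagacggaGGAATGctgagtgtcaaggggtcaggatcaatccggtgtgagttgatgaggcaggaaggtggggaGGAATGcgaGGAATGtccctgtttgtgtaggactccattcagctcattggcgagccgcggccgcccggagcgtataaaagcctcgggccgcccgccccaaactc

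Keratins, the intermediate filaments of epithelia, had the highest median of the 18 lists plotted below. Of 9 compared, 7 were at least 2-fold higher and none at least 2-fold lower (median 4.06). KRT19, KRT80, KRT15, KRT7, KRT81 and KRT86 were under 5 in CWR-R1 and entered only through CWR-R1ENZR. Their direction, and with it the sign of the median, followed from that minimum. With a minimum of 1 the median was also 4.06. KRT19, a keratin of simple epithelia, was at 326 in CWR-R1ENZR and 1.55 in CWR-R1 and KRT80, which appears in differentiating epithelia, at 263 in CWR-R1ENZR and 0.607 in CWR-R1. KRT15, a basal keratin, was at 20.6 in CWR-R1ENZR with no read in CWR-R1 (at least 102-fold higher), and KRT7, found in ducts, had 301 reads in CWR-R1ENZR and 4 in CWR-R1. KRT81 had 284 reads in CWR-R1ENZR and 1 in CWR-R1. It and KRT86, also higher on 3 reads in CWR-R1, are near-identical hair keratins whose reads may be shared. The luminal pair differed less, KRT18 at 509 in CWR-R1ENZR and 232 in CWR-R1 and KRT8 at 1355 in CWR-R1ENZR and 677 in CWR-R1, and KRT10 was at 5.495 in CWR-R1ENZR and 8.97 in CWR-R1. The basal markers KRT5 and KRT14 are not among the 9 keratins listed for these lines, and the basal marker TP63 was not analysed here.

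Genes of squamous and barrier differentiation were mostly higher, with 10 of 16 higher and 2 lower (median 1.32). Transglutaminases, which cross-link the cornified envelope, stood out. TGM3 was 1053-fold higher, TGM2 63.5-fold higher at 38.5 in CWR-R1ENZR and 0.607 in CWR-R1, and TGM1 3.17-fold higher at 8.98 in CWR-R1ENZR and 2.83 in CWR-R1. TGM3, TGM2 and TGM1 were all under 5 in CWR-R1 and entered only through CWR-R1ENZR, which fixed their direction. PPL, periplakin, a scaffold of that envelope, was at 81.6 in CWR-R1ENZR and 10.9 in CWR-R1, and the epithelial factor ELF3 at 857 in CWR-R1ENZR and 159 in CWR-R1. CNFN, cornifelin, at 3.95 in CWR-R1ENZR and 12.3 in CWR-R1, and the squamous factor GRHL3, at 4.49 in CWR-R1ENZR and 14.7 in CWR-R1, were lower. Both were under 5 in CWR-R1ENZR, which fixed their direction too. Laminin-332, the anchor of hemidesmosomes, was uneven. Its beta chain LAMB3 was at 115 in CWR-R1ENZR and 0.472 in CWR-R1, while the alpha chain LAMA3 was 6.29-fold lower at 2.68 in CWR-R1ENZR and 16.9 in CWR-R1. Each chain was under 5 in one line, so the minimum value fixed its direction. ITGB4, the integrin subunit that binds it, was 7.08-fold higher, and its partner ITGA6 was at 7.51 in CWR-R1ENZR and 8.64 in CWR-R1.

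Junction genes were mostly within 2-fold (5 higher and 2 lower of 23). CTNNB1, beta-catenin, was at 391 in CWR-R1ENZR and 391 in CWR-R1. EPCAM, an epithelial adhesion molecule, was at 66.8 in CWR-R1ENZR and 483 in CWR-R1 (7.23-fold lower, 6.76 to 7.73). The protease inhibitor SPINT1 was 4.12-fold higher and its target ST14, matriptase, was at 160.3 in CWR-R1ENZR and 53.4 in CWR-R1. Mesenchymal genes were lower in 4 of 9 compared cases and higher in 2. CDH2, N-cadherin, was at 1.81 in CWR-R1ENZR and 35.6 in CWR-R1. ZEB1, a repressor of epithelial genes, had no read in CWR-R1ENZR and was at 19.9 in CWR-R1 (at least 98.99-fold lower). CDH2 and ZEB1 were under 5 in CWR-R1ENZR and entered only through CWR-R1, which fixed their direction. TNC, the matrix protein tenascin C, was at 32.03 in CWR-R1ENZR and 342.1 in CWR-R1. The 2 higher members had few reads in CWR-R1 and entered only through CWR-R1ENZR, which fixed their direction. SPARC, a matrix glycoprotein, was at 7.104 in CWR-R1ENZR, with 3 reads in CWR-R1 (interval of the fold 11.7 to 173), and S100A4, a calcium-binding protein of motile cells, was at 53.1 in CWR-R1ENZR, with 1 read in CWR-R1 (interval of the fold 141 to 31152). TIMP3, an inhibitor of matrix proteases, had 753 reads in CWR-R1ENZR and 1 in CWR-R1. Among collagens, 6 of 14 were higher and 2 lower, and the chains of collagen VI, which forms networks around cells, led them, COL6A1 at 187 in CWR-R1ENZR and 33.7 in CWR-R1 and COL6A2 at 86.4 in CWR-R1ENZR and 8.77 in CWR-R1.

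Actin regulators differed in both directions, 12 higher and 6 lower of 33 compared. CORO1A, a coronin typical of blood cells, was at 272 in CWR-R1ENZR and 4.18 in CWR-R1 (65.1-fold higher), while LCP1, an actin bundler also typical of blood cells, was at 3.08 in CWR-R1ENZR and 90.4 in CWR-R1 (29.3-fold lower). GSN, gelsolin, which severs filaments, was 12.1-fold higher at 316 in CWR-R1ENZR and 26.04 in CWR-R1, and IQGAP2, a scaffold of actin and small GTPases, was at 0.737 in CWR-R1ENZR and 64.7 in CWR-R1. KANK4 had 1202 reads in CWR-R1ENZR and none in CWR-R1.

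**Figure D3:**
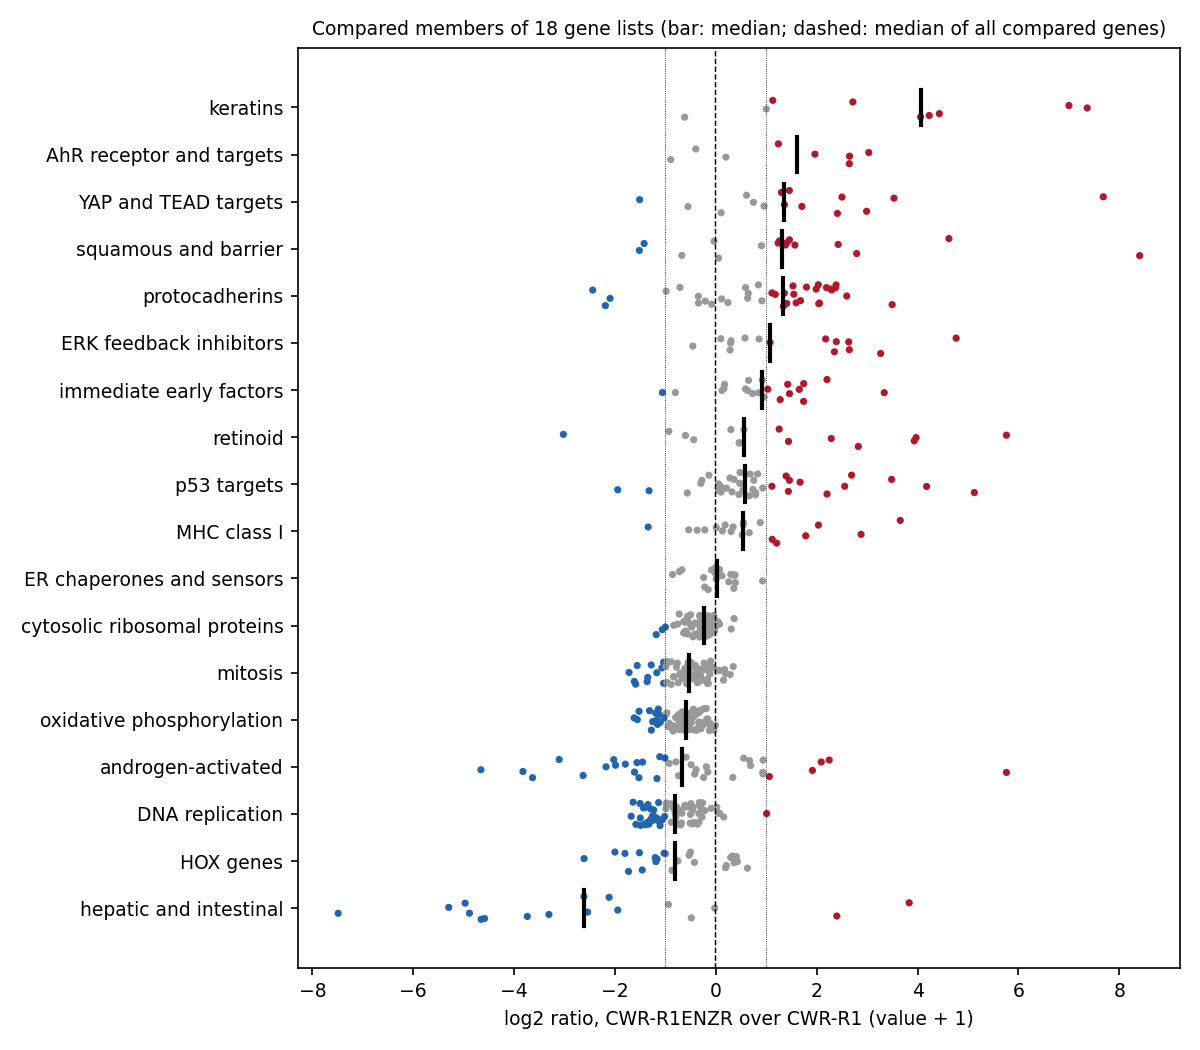
Log2 ratio of CWR-R1ENZR over CWR-R1 (x axis) of the compared members of 18 gene lists, 1 point per gene, red where at least 2-fold higher and blue where at least 2-fold lower in CWR-R1ENZR. Black bars are list medians, from 4.06 for keratins to −2.62 for hepatic and intestinal genes, and the dashed line is the median of all compared genes, −0.02.

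Of a list of liver and gut genes, 17 were compared, of which 12 were at least 2-fold lower and 2 higher (median −2.62). Many of them reached the minimum value of 5 in CWR-R1 alone, so their direction followed from that minimum, and with a minimum of 1 the median was −1.43. Among the factors, NR5A2, a nuclear receptor of bile acid synthesis, was at 2.28 in CWR-R1ENZR and 31.5 in CWR-R1, HNF4G at 6.501 in CWR-R1ENZR and 31.5 in CWR-R1, and A1CF, a cofactor of RNA editing, had 1 read in CWR-R1ENZR and 481 in CWR-R1. HLF, a factor of liver and of blood stem cells, was at 1.74 in CWR-R1ENZR and 107 in CWR-R1. Secreted and membrane products of these tissues were lower too. ALB, albumin, had 1 read in CWR-R1ENZR and 2824 in CWR-R1, APOH, a plasma glycoprotein, had none in CWR-R1ENZR and 423 in CWR-R1 (at least 142-fold lower), and the intestinal cadherin CDH17 had none in CWR-R1ENZR and was at 24.2 in CWR-R1. LGALS4, a gut galectin, was at 2.14 in CWR-R1ENZR and 74.5 in CWR-R1. CEACAM6, an adhesion molecule of gut and airway, was higher, at 14.2 in CWR-R1ENZR, with 1 read in CWR-R1 (interval of the fold 37.4 to 8356).

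Lineage factors of the prostate and of plasticity were split. SOX9, a factor of progenitor and ductal cells, was at 176 in CWR-R1ENZR and 17.1 in CWR-R1 (10.3-fold higher), TRPS1 at 219 in CWR-R1ENZR and 51.9 in CWR-R1, KLF5 at 219.9 in CWR-R1ENZR and 85.7 in CWR-R1 and GATA3 at 5.03 in CWR-R1ENZR and 0.2699 in CWR-R1. SOX2 was at 5.63 in CWR-R1ENZR and 36.5 in CWR-R1 and POU3F2, a neural factor, at 1.88 in CWR-R1ENZR and 16.7 in CWR-R1. GATA2, GRHL2 and SPDEF differed by less than 2-fold. Neuroendocrine markers gave no common direction, 3 higher and 5 lower of 12 compared. SYP, synaptophysin, was at 31.8 in CWR-R1ENZR and 7.49 in CWR-R1, SSTR5, a somatostatin receptor, at 60.1 in CWR-R1ENZR and 4.66 in CWR-R1 (12.9-fold higher), while SYT4, a synaptotagmin, was at 8.38 in CWR-R1ENZR and 126 in CWR-R1, the neuronal pentraxin NPTX2 at 3.02 in CWR-R1ENZR and 136 in CWR-R1 and PEG10 at 314 in CWR-R1ENZR and 1176 in CWR-R1. Strand use in counting is not given in the sources used here, so reads of SSTR5 and of its antisense partner SSTR5-AS1, at 204 in CWR-R1ENZR and 1.21 in CWR-R1, cannot be told apart.

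Replication genes were lower almost throughout. Of 68 compared, 63 had a ratio below 0, 27 were at least 2-fold lower and 1 was at least 2-fold higher, POLD4, the smallest subunit of polymerase delta. The median was −0.81. Licensing factors load the MCM helicase on origins. Their 6 origin recognition subunits were within 2-fold, from ORC1 at 29.1 in CWR-R1ENZR and 43.9 in CWR-R1 to ORC3 at 33.8 in CWR-R1ENZR and 30.2 in CWR-R1. The MCM helicase subunits lay lower, MCM2 at 181 in CWR-R1ENZR and 314 in CWR-R1, MCM3 at 85.1 in CWR-R1ENZR and 201 in CWR-R1, MCM4 at 163 in CWR-R1ENZR and 442 in CWR-R1, MCM5 at 64.6 in CWR-R1ENZR and 185 in CWR-R1, MCM6 at 44.3 in CWR-R1ENZR and 90.5 in CWR-R1 and MCM7 at 276 in CWR-R1ENZR and 643 in CWR-R1, so 5 of the 6 were past 2-fold. CDC6, which loads the helicase, was at 59.3 in CWR-R1ENZR and 119 in CWR-R1, and its partner CDT1 at 192 in CWR-R1ENZR and 247 in CWR-R1. Firing and fork genes had the lowest median of the 4 roles, −0.89, with 14 of 29 lower. They included CDC45 at 38.1 in CWR-R1ENZR and 101 in CWR-R1, the GINS subunits GINS2 at 22.05 in CWR-R1ENZR and 64.1 in CWR-R1 and GINS3 at 17.8 in CWR-R1ENZR and 55.5 in CWR-R1, TIMELESS, which steadies the fork, at 78.1 in CWR-R1ENZR and 252 in CWR-R1, and UHRF1, which carries DNA methylation to the new strand, at 48.1 in CWR-R1ENZR and 152 in CWR-R1 (3.16-fold lower, 2.91 to 3.44). Among the enzymes of nucleotide supply, TYMS, thymidylate synthase, was 2.84-fold lower and RRM2, of ribonucleotide reductase, 2.53-fold lower. PCNA, the sliding clamp, was at 148 in CWR-R1ENZR and 255 in CWR-R1.

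E2F sites were looked for as TTTCGCGC, TTTGGCGC, TTTCCCGC and TTTGCCGC on both strands of the 300-base promoters. They stood in 24 of 60 replication promoters (40%), and in 8 of 15 of the licensing role, against 3.33% of all promoters and 5.46% of those of compared genes. Replication genes with a site had a median ratio of −0.94 and those without one −0.64, and 11 genes of each kind were at least 2-fold lower, of 24 with and 36 without. The following 3 promoters are examples of those whose genes were at least 2-fold lower and whose sites lie within 200 bases of the start. MCM3, MCM7, LIG1 and TYMS met the same rule and are not printed. MCM6 (minus strand, chr2:135876444-135876643) holds 4 matches, which overlap in pairs as 2 inverted sites, the first starting 152 bases before the start. GINS2 (minus strand, chr16:85688955-85689154) holds 1, starting 31 bases before it, and UHRF1 (plus strand, chr19:4909301-4909500) holds 1, starting 14 bases before it. All are the 200 bases before the start from RefSeq (GRCh38.p14), 5′ to 3′, with matches in capitals.
MCM6: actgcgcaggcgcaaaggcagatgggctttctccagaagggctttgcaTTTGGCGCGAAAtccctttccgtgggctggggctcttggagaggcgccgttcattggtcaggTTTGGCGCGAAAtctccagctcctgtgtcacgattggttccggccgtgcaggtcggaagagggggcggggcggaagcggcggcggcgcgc
GINS2: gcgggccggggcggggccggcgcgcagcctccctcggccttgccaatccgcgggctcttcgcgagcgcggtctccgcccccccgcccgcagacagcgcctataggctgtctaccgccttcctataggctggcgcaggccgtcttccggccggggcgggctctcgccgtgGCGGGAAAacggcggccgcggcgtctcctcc
UHRF1: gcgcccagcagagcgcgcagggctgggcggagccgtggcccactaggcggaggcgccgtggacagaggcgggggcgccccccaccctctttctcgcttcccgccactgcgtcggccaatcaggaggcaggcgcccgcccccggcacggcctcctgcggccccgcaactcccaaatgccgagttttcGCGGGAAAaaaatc

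Mitosis genes were lower to a smaller degree. Of 75 compared, 68 had a ratio below 0 and 11 were at least 2-fold lower (median −0.53). The share past 2-fold was near the 10.3% of all compared genes, while most members lay on the same side of 0. ESPL1, separase, which cuts cohesin at anaphase, was at 67.2 in CWR-R1ENZR and 224 in CWR-R1, AURKB, a kinase of the chromosomal passenger complex, at 55.4 in CWR-R1ENZR and 169 in CWR-R1, FOXM1, which activates mitotic genes, at 122 in CWR-R1ENZR and 315 in CWR-R1, and KNTC1, a kinetochore protein, at 78.7 in CWR-R1ENZR and 234 in CWR-R1. CCNB1, cyclin B1, was at 141 in CWR-R1ENZR and 148 in CWR-R1 and CDC20, an activator of the anaphase-promoting complex, at 164 in CWR-R1ENZR and 156 in CWR-R1. ASPM, a spindle protein, ran the other way at 453 in CWR-R1ENZR and 372 in CWR-R1. The CHR motif TTTGAA, common in promoters of mitotic genes, stood in 39 of 64 mitosis promoters (60.9%), against 15.2% of all. Genes with it had a median of −0.43 and those without it −0.53. Homologous recombination genes were lower past 2-fold in 8 of 35 cases, and none was higher (median −0.59). RAD54L, a DNA translocase, was at 27.6 in CWR-R1ENZR and 67.8 in CWR-R1 and RAD51AP1, which aids strand pairing, at 30.6 in CWR-R1ENZR and 71.1 in CWR-R1. In C4-2B the medians over the 4 pairings were −0.04 to 0.04 for replication, −0.21 to −0.19 for mitosis and 0.06 to 0.12 for recombination. These differences from CWR-R1 were not tested.

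Brakes on the cell cycle were mixed. CDKN1A, the p21 inhibitor of cyclin-dependent kinases, was at 594 in CWR-R1ENZR and 52.2 in CWR-R1 (11.4-fold higher, 10.6 to 12.3). E2F1 was at 72.4 in CWR-R1ENZR and 154 in CWR-R1 and E2F8 at 6.77 in CWR-R1ENZR and 24.4 in CWR-R1, and the inhibitor CDKN2C was at 23.1 in CWR-R1ENZR and 88.2 in CWR-R1. Of 39 compared p53 target genes, 11 were higher by 2-fold or more and 2 were lower (median 0.58), and the cell cycle role led with 6 of 11. PLK2, a polo-like kinase, was at 73.3 in CWR-R1ENZR and 3.103 in CWR-R1 (23.6-fold higher), BTG2, an antiproliferative factor, at 64.5 in CWR-R1ENZR and 13.2 in CWR-R1, and PHLDA3, an inhibitor of AKT, at 96.1 in CWR-R1ENZR and 14.03 in CWR-R1. MDM2, the main feedback target, was at 212 in CWR-R1ENZR and 233 in CWR-R1, BAX at 55.7 in CWR-R1ENZR and 33.1 in CWR-R1, and PMAIP1, a BH3-only killer protein, was lower at 13.00 in CWR-R1ENZR and 34.1 in CWR-R1. GDF15, a stress-induced cytokine of the TGF-beta family, was at 879 in CWR-R1ENZR and 24.2 in CWR-R1 (36.3-fold higher, 32.7 to 40.4). CDKN1A, BTG2 and GDF15 are also induced by routes other than p53. The 8 compared replication-dependent histone genes all had ratios above 0, and 3 were at least 2-fold higher. HIST2H2AA3 and HIST2H2AA4 are near-identical copies with identical values, which the counting did not separate. These histone messages normally lack a poly(A) tail, and the libraries were made from polyadenylated RNA.

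All 78 compared subunits of oxidative phosphorylation had ratios below 0. Most differed by less than 2-fold, 13 were past it, and none was higher (median −0.60). Complex III had a median of −0.75, complex V of −0.65, complex IV of −0.59, complex I of −0.58 and complex II, which also serves the citric acid cycle, of −0.27. ATP5B, the catalytic beta subunit of ATP synthase, was at 1203 in CWR-R1ENZR and 2866 in CWR-R1 (2.38-fold lower, 2.34 to 2.42), and ATP5A1, the alpha subunit, at 692 in CWR-R1ENZR and 992 in CWR-R1. ATP5G1, of its membrane ring, was 2.999-fold lower. CYCS, cytochrome c, was at 124 in CWR-R1ENZR and 357 in CWR-R1, CYC1, of complex III, at 187 in CWR-R1ENZR and 455 in CWR-R1, and NDUFA5, of complex I, at 66.1 in CWR-R1ENZR and 149 in CWR-R1. NDUFS3 was level at 63.4 in CWR-R1ENZR and 63.8 in CWR-R1. Genes encoded by the mitochondrial genome were not analysed here. Nuclear genes of mitochondrial ribosomes were closer to level, 6 of 78 lower (median −0.21). In C4-2B the oxidative phosphorylation list had medians of −0.25 to −0.16.

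In the citric acid cycle list 4 of 28 were lower, among them FH, fumarase, at 91.3 in CWR-R1ENZR and 245 in CWR-R1, and IDH1 at 126 in CWR-R1ENZR and 296 in CWR-R1. Glycolytic enzymes were mostly within 2-fold. ALDOA, aldolase A, was the one at least 2-fold higher, at 2837 in CWR-R1ENZR and 957 in CWR-R1, and TPI1, its neighbour in the pathway, was at 453 in CWR-R1ENZR and 1103 in CWR-R1. GAPDH, often used as a constant gene, was at 2392 in CWR-R1ENZR and 3559.8 in CWR-R1. Among hypoxia targets, EGLN3, an oxygen sensor, was at 48.6 in CWR-R1ENZR and 3.98 in CWR-R1 and DDIT4, an inhibitor of mTORC1, at 363 in CWR-R1ENZR and 65.9 in CWR-R1, whereas BNIP3, which removes mitochondria, was at 37.7 in CWR-R1ENZR and 83.3 in CWR-R1. Fat synthesis was lower in 5 of 18 genes, with SCD, stearoyl-CoA desaturase, at 368.4 in CWR-R1ENZR and 1775 in CWR-R1 (4.82-fold lower), ACACA, acetyl-CoA carboxylase, at 165 in CWR-R1ENZR and 409 in CWR-R1, and ELOVL2, which elongates polyunsaturated fats, at 1.21 in CWR-R1ENZR and 58.7 in CWR-R1. FASN was not among those past 2-fold. Cholesterol synthesis was lower past 2-fold in 4 of 20. Of ATF4 targets, 6 of 36 were lower, with ALDH1L2, a mitochondrial folate enzyme, at 3.42 in CWR-R1ENZR and 129 in CWR-R1 and PHGDH, the entry to serine synthesis, at 117 in CWR-R1ENZR and 346 in CWR-R1. CHAC1, which degrades glutathione, was higher at 11.3 in CWR-R1ENZR and 2.97 in CWR-R1. Chaperones of the endoplasmic reticulum did not move past 2-fold in any of 20 cases (median 0.02), HSPA5 standing at 685 in CWR-R1ENZR and 674 in CWR-R1.

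A few antioxidant and metal-binding genes differed widely. SOD3, the extracellular superoxide dismutase, was 66.01-fold higher and GPX3, a secreted peroxidase, at 50.7 in CWR-R1ENZR and 1.01 in CWR-R1 (50.1-fold higher), while MGST1, a membrane glutathione transferase, was at 8.71 in CWR-R1ENZR and 154 in CWR-R1 (17.6-fold lower). Metallothioneins, which bind zinc and copper, were at least 2-fold lower in all 4 compared cases. All 4 were under 5 in CWR-R1ENZR and entered only through CWR-R1, so their direction followed from that minimum. MT2A was at 4.83 in CWR-R1ENZR and 93.2 in CWR-R1, MT1X at 2.41 in CWR-R1ENZR and 16.9 in CWR-R1, MT1G at 0.536 in CWR-R1ENZR and 8.16 in CWR-R1, and MT1E had no read in CWR-R1ENZR and was at 17.8 in CWR-R1. These genes are near-identical copies, so their reads may be shared. HSPB1, a small heat shock protein, was at 71.7 in CWR-R1ENZR and 461 in CWR-R1 and HSPD1, the mitochondrial chaperonin, at 601 in CWR-R1ENZR and 1716 in CWR-R1.

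The aryl hydrocarbon receptor is a sensor of planar aromatic ligands. The receptor and its targets counted 5 of 8 compared genes at least 2-fold higher and none at least 2-fold lower. AHR was at 246 in CWR-R1ENZR and 38.4 in CWR-R1 (6.400-fold higher), its repressor AHRR at 17.6 in CWR-R1ENZR and 1.96 in CWR-R1, and the target CYP1A1, a monooxygenase, at 281 in CWR-R1ENZR and 33.5 in CWR-R1 (8.39-fold higher, 7.64 to 9.23). CYP1B1, another classical target, was at 7.24 in CWR-R1ENZR and 9.85 in CWR-R1, and NQO1 at 23.2 in CWR-R1ENZR and 43.99 in CWR-R1. Retinoid genes were higher in 7 of 15 and lower in 1. Besides ALDH1A3, CRABP2, which carries retinoic acid to the nucleus, was at 399 in CWR-R1ENZR and 24.6 in CWR-R1 (16.3-fold higher), STRA6, a retinol importer, was at 14.3 in CWR-R1ENZR with no read in CWR-R1 (at least 70.5-fold higher), and CYP26B1, which degrades retinoic acid, was at 15.1 in CWR-R1ENZR and 2.29 in CWR-R1. ALDH1A1, an enzyme with the same reaction as ALDH1A3, was lower, at 19.6 in CWR-R1ENZR and 167 in CWR-R1 (8.49-fold lower), and RARA, a receptor, was at 57.1 in CWR-R1ENZR and 23.3 in CWR-R1. Prostaglandin genes were divided, 3 higher and 4 lower of 10 compared. PTGER4, a receptor for prostaglandin E2, was at 137 in CWR-R1ENZR and 10.2 in CWR-R1, and HPGD, which inactivates prostaglandins, at 0.335 in CWR-R1ENZR and 19.9 in CWR-R1.

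In the TGF-beta family, ligands differed in both directions, while SMADs and targets were higher in 6 of 16 compared cases and lower in 1, PMEPA1. INHBA, the activin A subunit, was at 27.7 in CWR-R1ENZR and 0.5397 in CWR-R1 (51.3-fold higher) and INHBB, the activin B subunit, at 1.61 in CWR-R1ENZR and 52.8 in CWR-R1 (32.8-fold lower). BAMBI, a decoy receptor, was at 75.1 in CWR-R1ENZR and 4.86 in CWR-R1 and the activin binder FST at 16.2 in CWR-R1ENZR and 3.44 in CWR-R1. SMAD3 was at 204 in CWR-R1ENZR and 42.2 in CWR-R1, SMAD6, an inhibitor of BMP signalling, at 42.6 in CWR-R1ENZR and 9.58 in CWR-R1, and the BMP target ID1 at 603 in CWR-R1ENZR and 141 in CWR-R1. SMAD2, SMAD4 and SMAD7 were within 2-fold. WNT feedback genes and targets had 0 of 10 past 2-fold in either direction, and AXIN2 was at 7.77 in CWR-R1ENZR and 9.78 in CWR-R1. The receptor gene FZD8 was at 20.2 in CWR-R1ENZR and 512 in CWR-R1 (25.4-fold lower, 22.6 to 28.6), and WNT7B, a ligand, was 3.602-fold higher. NOTCH1 was at 136 in CWR-R1ENZR and 60.9 in CWR-R1, and its targets were split, HES1 at 68.02 in CWR-R1ENZR and 19.1 in CWR-R1 and HEY1 at 7.51 in CWR-R1ENZR and 26.4 in CWR-R1.

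Axon guidance receptors differed by subtype. Of 8 compared plexins 4 were higher and 3 lower. PLXNB3 was at 72.6 in CWR-R1ENZR and 21.3 in CWR-R1 and PLXNA3 at 170.0 in CWR-R1ENZR and 58.2 in CWR-R1, whereas PLXND1 was at 16.1 in CWR-R1ENZR and 66.7 in CWR-R1 and PLXNC1 at 3.02 in CWR-R1ENZR and 18.8 in CWR-R1. Their ligands SEMA3F, at 267 in CWR-R1ENZR and 64.5 in CWR-R1, and SEMA3D, at 3.02 in CWR-R1ENZR and 50.7 in CWR-R1, lay on opposite sides. Among Eph receptors, 5 of the A class were at least 2-fold lower, among them EPHA7 at 12.4 in CWR-R1ENZR and 91.8 in CWR-R1 and EPHA6 at 2.95 in CWR-R1ENZR and 34.8 in CWR-R1, with EPHA1 opposite at 27.7 in CWR-R1ENZR and 5.53 in CWR-R1, while the B class members EPHB3, at 29.7 in CWR-R1ENZR and 7.35 in CWR-R1, and EPHB4, at 242 in CWR-R1ENZR and 109.6 in CWR-R1, were higher. Annexins, which bind membranes where calcium is present, were higher in 4 of 8 cases and lower in 0, and S100 proteins, their frequent partners, higher in 4 of 8 and lower in 1. They include ANXA1 at 63.2 in CWR-R1ENZR and 1.21 in CWR-R1 (52.04-fold higher), S100P at 76.5 in CWR-R1ENZR and 1.69 in CWR-R1 (45.4-fold higher) and S100A10, lower, at 27.9 in CWR-R1ENZR and 70.8 in CWR-R1. ANXA1 and S100P were under 5 in CWR-R1 and entered only through CWR-R1ENZR, which fixed their direction.

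Antigen presentation was partly higher. Of 20 compared genes 6 were at least 2-fold higher and 1, the stress ligand MICB, was lower. HLA-B was at 544 in CWR-R1ENZR and 73.1 in CWR-R1 (7.44-fold higher) and HLA-C at 654 in CWR-R1ENZR and 159 in CWR-R1, which share sequence, so reads may be divided between them. PSMB8, a subunit of the immunoproteasome, was at 69.4 in CWR-R1ENZR and 4.59 in CWR-R1 (15.1-fold higher). B2M, the common light chain, was at 334 in CWR-R1ENZR and 305 in CWR-R1, and PDIA3, of the loading complex, at 610.3 in CWR-R1ENZR and 607 in CWR-R1. Interferon-stimulated genes were higher in 6 and lower in 2 of 26, with ISG20 at 38.2 in CWR-R1ENZR and 5.19 in CWR-R1, ISG15 at 115 in CWR-R1ENZR and 50.5 in CWR-R1 and BST2 at 3.55 in CWR-R1ENZR and 14.03 in CWR-R1. In the NF-kB list 7 of 18 were higher and none lower. LIF, a cytokine of the interleukin-6 family, was at 16.3 in CWR-R1ENZR and 0.877 in CWR-R1, NFKBIZ, an inducible cofactor, at 59.1 in CWR-R1ENZR and 6.14 in CWR-R1, and NFKB2 at 166 in CWR-R1ENZR and 64.4 in CWR-R1. Outside these lists, the chemokine gene CCL22 was at 89.7 in CWR-R1ENZR and 7.76 in CWR-R1.

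By difference in value, which also depends on a gene's level and transcript length, the genes farthest above 0 include ACTG1, gamma actin, at 4550.0 in CWR-R1ENZR and 2125 in CWR-R1, ALDOA, and APP, the amyloid precursor protein, at 1859.5 in CWR-R1ENZR and 315 in CWR-R1. NES, nestin, an intermediate filament of progenitors, was at 1718 in CWR-R1ENZR and 243 in CWR-R1, and PSAP, a lysosomal activator, at 1764 in CWR-R1ENZR and 619 in CWR-R1. ATP1B1, the beta subunit of the sodium pump, was at 1250.1 in CWR-R1ENZR and 420.5 in CWR-R1. Among those farthest below 0, EEF1A1, a translation elongation factor, was at 9932 in CWR-R1ENZR and 18145 in CWR-R1, less than 2-fold lower. TUBA1B, a tubulin, was at 890.0 in CWR-R1ENZR and 2970.3 in CWR-R1, RPLP0, of the large ribosomal subunit, at 2131 in CWR-R1ENZR and 3218 in CWR-R1, and ZFP36L2, which destabilizes AU-rich messages, at 53.01 in CWR-R1ENZR and 1119 in CWR-R1 (21.1-fold lower). RNA18S5, a ribosomal RNA that selection for poly(A) should remove, was at 1307 in CWR-R1ENZR and 2556 in CWR-R1. Cytosolic ribosomal protein genes were past 2-fold in 3 of 82 cases, all lower (median −0.24). Among the 12 highest and 12 lowest by ratio not yet given, MALL, a membrane raft protein, was at 241 in CWR-R1ENZR and 3.103 in CWR-R1, and ADGRF1, an adhesion receptor, had 788 reads in CWR-R1ENZR and none in CWR-R1. ASB9, of a ubiquitin ligase, had none in CWR-R1ENZR and 838 in CWR-R1, TPPP3, which promotes tubulin polymerization, was at 4.02 in CWR-R1ENZR and 165 in CWR-R1 and VWA2 at 0.335 in CWR-R1ENZR and 42.2 in CWR-R1.

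Genes that were lower in CWR-R1ENZR lay more often on chromosomes 7, 8 and 12 than on others. The RefSeq gene table (GRCh38.p14) placed 12340 of the 12462 compared genes, and was used for order and chromosome only, since the authors' files are on hg19. On chromosome 12, 177 of 655 compared genes (27.0%) were at least 2-fold lower and 5.19% at least 2-fold higher, with a median ratio of −0.57, and 526 genes (80.3%) had a ratio below 0. The same lean ran along the whole chromosome. In 6 consecutive parts of its gene order, of 109 or 110 genes each, medians lay between −0.46 and −0.66. Chromosome 8 had 21.8% lower genes (median −0.37) and chromosome 7 had 19.6% (median −0.39), against 10.3% over all compared genes. Chromosome 21 had a median of 0.18, chromosome 20 of 0.16, chromosome 19 of 0.14 and chromosome 1 of 0.12. In C4-2B chromosome 12 had medians of 0.08 to 0.09 over the 4 pairings. DNA copy number was not measured, and its part in these values was not tested.

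**Figure D4:**
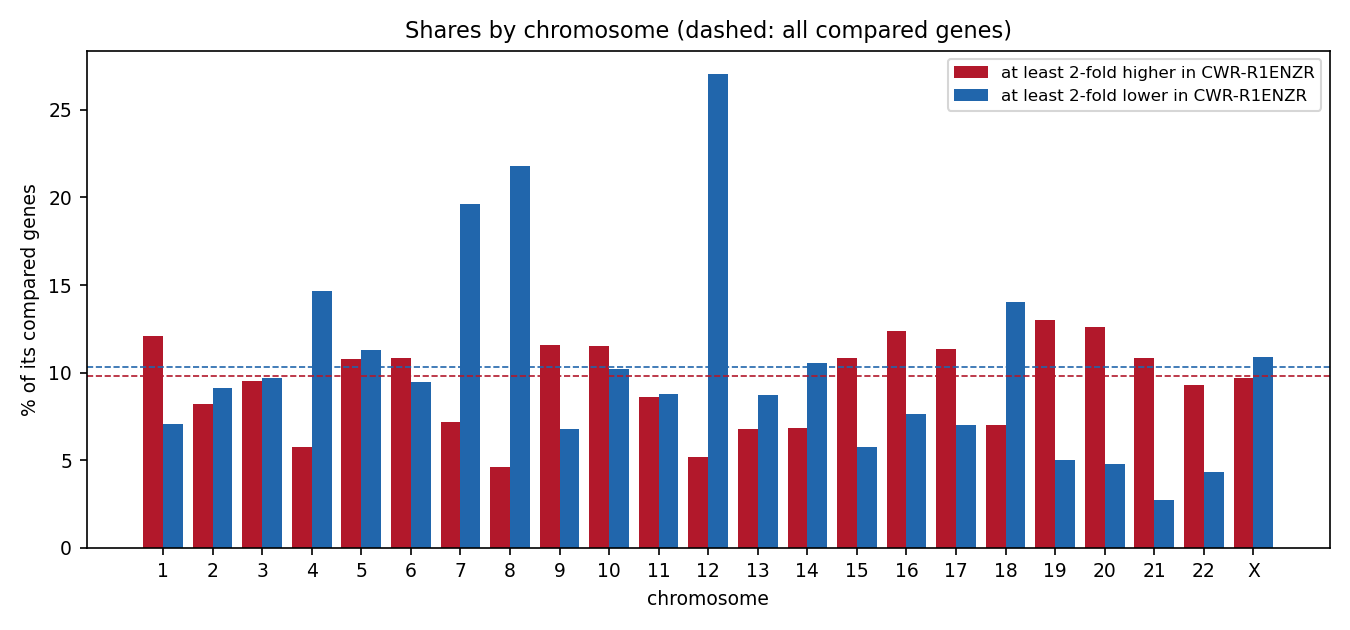
Share of compared genes on each chromosome (y axis, %) at least 2-fold higher (red, left bars) and at least 2-fold lower (blue, right bars) in CWR-R1ENZR relative to CWR-R1, with dashed lines at the shares over all compared genes, 9.79% higher and 10.3% lower. Chromosomes 12 (27.0%), 8 (21.8%) and 7 (19.6%) have the most lower genes.

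The members of the lists are not evenly spread over chromosomes. Without the genes of chromosomes 7, 8 and 12 the median of all compared genes was 0.04. That of replication was −0.77 (17 of 55 lower), that of mitosis −0.47, and that of oxidative phosphorylation −0.50 (5 of 65 lower). The signs of these 3 medians were as with all chromosomes. The androgen-activated median was −0.32, nearer to 0 than with all chromosomes, with 5 higher and 11 lower of 30. HOX genes, of which 10 of 24 were at least 2-fold lower (median −0.81), lie largely in clusters on chromosomes 7 and 12. Without them 9 genes were left, of which 1 was lower. HOXC6, on chromosome 12, was at 17.6 in CWR-R1ENZR and 73.5 in CWR-R1, and HOXA10, on chromosome 7, at 14.3 in CWR-R1ENZR and 42.8 in CWR-R1, but HOXC13, also on chromosome 12, at 73.7 in CWR-R1ENZR and 58.5 in CWR-R1. Keratins differed from the rest of their chromosome. KRT7, KRT8, KRT18, KRT80, KRT81 and KRT86 lie on chromosome 12 and were all higher in CWR-R1ENZR. Of these, KRT7, KRT80, KRT81 and KRT86 were under 5 in CWR-R1, which fixed their direction. Only KRT8 and KRT18 could have gone either way.

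Medians over 15 neighbouring compared genes showed where differences were concentrated. They ran from −1.41 to 2.03, with 5% of stretches under −0.61 and 5% over 0.46. The highest stretch was the protocadherin cluster on chromosome 5, from PCDHB5 to PCDHGA4, where all 15 genes had ratios above 0 and 13 were at least 2-fold higher. Many of them, such as PCDHB16, PCDHB14 and PCDHGB1, were under 5 in CWR-R1, which fixed their direction. PCDHB5, PCDHB8, PCDHB11, PCDHB13 and PCDHB15 were above 5 in both lines. Their ratios were 0.64, 1.99, 1.55, 1.59 and 2.04. Clustered protocadherins are adhesion molecules of which a single neuron expresses a small choice of promoters. PCDHB16 was at 17.96 in CWR-R1ENZR and 2.63 in CWR-R1, PCDHB14 at 18.2 in CWR-R1ENZR and 2.699 in CWR-R1 and PCDHGB1 at 27.01 in CWR-R1ENZR and 1.48 in CWR-R1 (18.2-fold higher), while TAF7, a general transcription factor that lies within the cluster, was at 157 in CWR-R1ENZR and 117 in CWR-R1. Elsewhere in the cluster PCDHGA11 was lower, at 3.28 in CWR-R1ENZR and 18.6 in CWR-R1, and PCDHAC2 too, at 1.07 in CWR-R1ENZR and 10.3 in CWR-R1. Reads of gamma and alpha isoforms share constant exons, so single values are uncertain. Over the whole family 21 of 37 were higher and 3 lower, with the same limit for genes under 5 in either line.

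The next stretches by median were a part of the MHC region on chromosome 6, from PPP1R18 to HCP5 (median 1.31), with IER3, DDR1, HLA-C and HLA-B inside it, a stretch of chromosome 16 from HIRIP3 to SULT1A3 (1.15) that holds ALDOA and CORO1A, and one of chromosome 17 from CACNB1 to ORMDL3 (1.14). The last holds ERBB2 and its neighbours. PPP1R1B, a phosphatase inhibitor, was at 386 in CWR-R1ENZR and 24.6 in CWR-R1 (15.7-fold higher), GRB7, an adaptor, at 142 in CWR-R1ENZR and 38.4 in CWR-R1, STARD3, a cholesterol transporter, at 74.8 in CWR-R1ENZR and 33.3 in CWR-R1 and PNMT, which makes adrenaline, at 9.85 in CWR-R1ENZR and 0.337 in CWR-R1. MIEN1, next to ERBB2, was at 63.3 in CWR-R1ENZR and 55.1 in CWR-R1, CDK12 at 75.1 in CWR-R1ENZR and 59.6 in CWR-R1 and MED1 at 123 in CWR-R1ENZR and 95.9 in CWR-R1, so the neighbours differed among themselves. The lowest stretch was on chromosome 7, from SEMA3E to CFAP69 (median −1.41). All 15 genes of it had ratios below 0, and 10 were at least 2-fold lower. Of these, SEMA3E, SEMA3D, STEAP1, STEAP2 and CFAP69, whose ratio is the median, were under the minimum value in CWR-R1ENZR, which fixed their direction. The remaining genes of this stretch were above that minimum in both lines and could have gone either way. CROT, which moves fatty acids out of peroxisomes, was at 15.3 in CWR-R1ENZR and 177 in CWR-R1 (11.6-fold lower), ADAM22, a receptor of synapses, at 13.9 in CWR-R1ENZR and 57.1 in CWR-R1, and STEAP1 and STEAP2, given above as androgen-activated, and SEMA3D lie there too. DMTF1, in the same stretch, was at 48.5 in CWR-R1ENZR and 56.6 in CWR-R1. On chromosome 8 the stretch from STAU2 to TPD52 (median −1.20) holds HNF4G, HEY1 and TPD52, an androgen-activated gene of vesicle traffic, at 162 in CWR-R1ENZR and 445 in CWR-R1. Chromosome 12 held the next 2, from POC1B-GALNT4 to NR2C1 (−1.19) and from PARPBP to C12orf75 (−1.13), of which the second holds ALDH1L2. In all stretches named here, the direction of genes under the minimum value in either line was fixed in the same way.

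**Figure D5:**
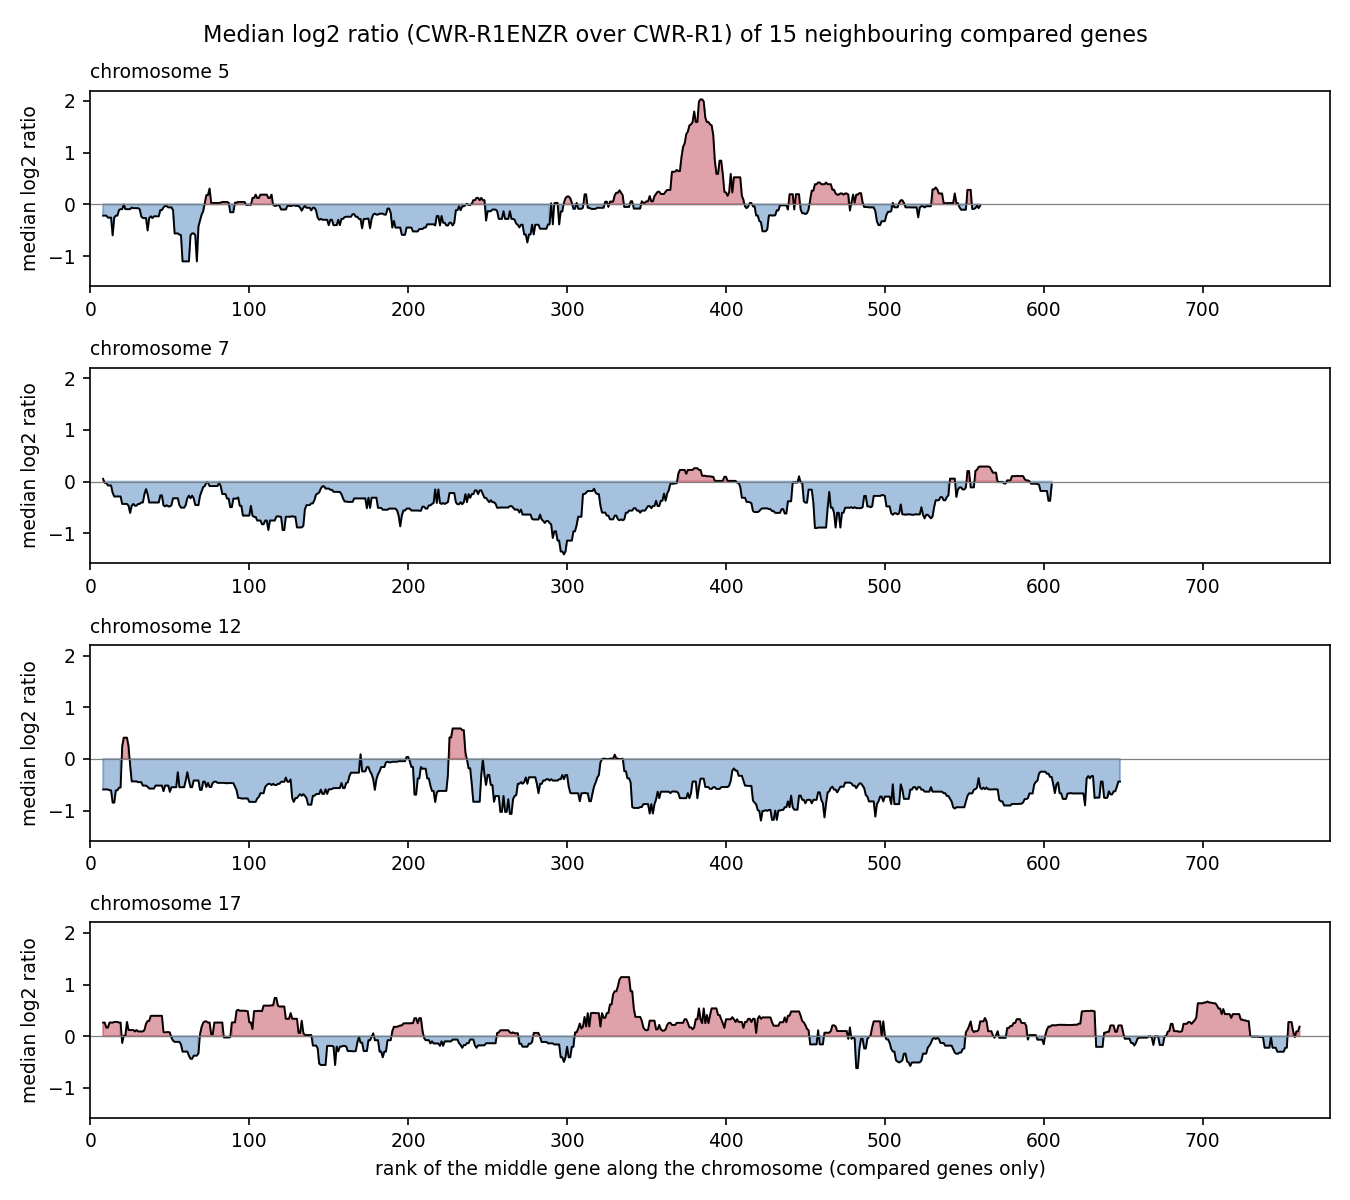
Median log2 ratio of CWR-R1ENZR over CWR-R1 (y axes) of 15 neighbouring compared genes, against the rank of the middle gene along chromosomes 5, 7, 12 and 17 (x axis), red above 0 and blue below it. The protocadherin peak on chromosome 5 reaches 2.03, the ERBB2 stretch on chromosome 17 reaches 1.14, chromosome 7 has its lowest point at −1.41, and nearly all of chromosome 12 lies below 0.

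Gene length went with the direction as well. Of placed genes in the lowest tertile of span along the genome, 12.6% were at least 2-fold higher and 8.35% lower, and in the highest tertile 7.86% were higher and 13.8% lower. RNA quality values were not used here, and their part in this difference was not tested.

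Other lists were compared as well. Of 47 chromatin regulators 5 were higher and 4 lower (median −0.06), with EZH2, the methyltransferase of Polycomb, at 89.5 in CWR-R1ENZR and 110.2 in CWR-R1, KDM5B, a histone demethylase, at 210.5 in CWR-R1ENZR and 48.98 in CWR-R1, and DNMT1, which maintains DNA methylation, at 165 in CWR-R1ENZR and 355 in CWR-R1. Of 26 heat shock genes 3 were higher and 3 lower, and of 26 regulators of apoptosis 2 were higher and 3 lower. Clock genes counted 2 higher and 3 lower of 19, HLF among the lower ones. The 27 compared targets of NRF2, the antioxidant factor, held 2 higher and 3 lower genes. Solute carriers, a large family of membrane transporters, counted 30 higher and 24 lower of 191 (median 0.02). Proteasome subunits were within 2-fold in all but 2 higher and 1 lower of 37, and PSMB8 is one of those higher.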

How the data were processed

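RNA-seq of 1 CWR-R1ENZR and 1 CWR-R1 library was analysed, with 2 libraries each of C4-2BENZR and C4-2B for the spread between replicates. The deposited normalized signal values are gene read counts that the authors divided by a scaled library size. The genome was hg19 per the submitters' processing notes, and the sources used here name no aligner or counter. Every value came out as a whole number of reads (within 0.02 reads), so reads were recovered, and every listed gene has at least 15 reads in its higher library. The authors' deposited FDR column (p-value type) was used for counts only. Ratios are log2(value + 1), with a minimum of 5 in the higher library and a call at 2-fold. Counting intervals are exact binomial (Clopper-Pearson, 95%). The floor for a count of 0 was 3 reads. Reads carry no molecular identifiers, so they are not independent molecules and intervals cover counting error only. A count test on the reads needs replicates and was not run.

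Gene lists were written by hand, families by symbol pattern. Members and lists were chosen with earlier results of these data known. Named genes are the 12 highest and 12 lowest by ratio with summed values of at least 10, the 10 largest differences each way, and for each list its largest ratios, opposite members, highest levels and related ligands, receptors or complex members. CCL22, TNFSF15 and genes of the stretches were chosen after their values were seen. Some list members are not reported here. RefSeq (GRCh38.p14) gave gene order and promoters, matching 12340 of 12462 compared genes by symbol and giving a promoter for 10038. The calculations were tested on simulated data. Python 3.11.15 was used, with numpy 2.4.6, pandas 2.3.3, scipy 1.17.1 and matplotlib 3.10.9.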

Additional observations from a re-analysis of the deposited data

Results flagged for a closer look

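For 17 genes of the hand-written lists or named by size, the CWR-R1 lines and all 4 pairings of a C4-2BENZR with a C4-2B library differed by 2-fold or more in opposite directions. The difference was not tested, since CWR-R1 has 1 library a line. It is given as the log2 ratio in CWR-R1 cells minus the middle of the 4 C4-2B ratios. How many genes were screened, and how many went the same way, is not given here, so 17 cannot be read as a share. Over all genes, 451 of 11533 were at least 2-fold higher and 311 at least 2-fold lower in all 4 C4-2B pairings. MALL and CHAC1 were under 5 in CWR-R1 and ELOVL2 and GRB14 in CWR-R1ENZR, which fixed their direction there. In 8 of the 17 the ratio was higher in CWR-R1 cells. GDF15, higher in CWR-R1ENZR, was at 20.5 and 25.3 in C4-2BENZR, against 115.7 and 127 in C4-2B (difference 7.49). MALL differed by 7.26, PTGER4 by 5.90, PHLDA1 by 5.15 and PRKACB by 5.13, the last at 28.4 and 27.3 in C4-2BENZR, against 350 and 369 in C4-2B. PPL differed by 4.23, DDIT4 by 3.74 and CHAC1 by 3.41.

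In the other 9 the ratio was lower in CWR-R1 cells. SYT4, lower in CWR-R1ENZR, was at 381 in both C4-2BENZR libraries, against 5.36 and 5.28 in C4-2B (difference −9.68). ELOVL2 gave −6.25, and TNC gave −6.24, on 6.52 and 6.02 in C4-2BENZR with both C4-2B libraries at 0. PEG10 gave −3.41, FSTL1 −3.32, LGR4 −3.21, GRB14 −2.81, FZD9 −2.59 and FSCN1 −2.40.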

How the results depend on the processing

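No paired analysis was possible because each line has 1 library. For the same reason no library could be left out and no count test was run. The count of higher genes was 775 with a minimum value of 20, and the counts were 2364 higher and 2599 lower at 1.5-fold, and 370 higher and 337 lower at 4-fold. Scaling by total reads shifted ratios by a median of 0.08 and moved the share of higher among 2-fold genes to 55.6%, against 48.7%. It put the median of androgen-activated genes at −0.51 and that of hepatic and intestinal genes at −2.86. A pseudocount of 0.1 gave medians of 5.78 for keratins, −3.73 for hepatic and intestinal genes and −0.93 for HOX genes. A minimum value of 1 gave 0.96 for YAP and TEAD targets, −1.43 for hepatic and intestinal genes and −0.50 for HOX genes. Leaving out genes of chromosomes 7, 8 and 12, an alternative chosen after seeing the data, gave −0.32 for androgen-activated genes, 0.72 for ERK feedback inhibitors, 4.43 for keratins, −0.50 for oxidative phosphorylation and −0.42 for HOX genes. Stretches of 25 genes reached 1.59 and −1.09, and stretches of 10 genes −1.67. The cause of these shifts was not tested. The other 56 values of counts, medians and stretches stayed within 0.09 log2, the median difference between C4-2B replicates, or within 1.5 times for counts. For named single genes, 69 values stayed within the gene's own counting interval and 17 did not, all under scaling by total reads.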
